A study of Mus musculus with 16 samples.

Results

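The miR-30 arms followed here numbered 4: hsa-miR-30d-5p and hsa-miR-30e-5p, which come from the 5′ side of their hairpins, and hsa-miR-30c-1-3p and hsa-miR-30c-2-3p, which come from the 3′ side of both miR-30c hairpins. They were taken by their exact names on the array, and all 4 were found among 1205 human miRNAs on the array and among the 283 that passed the filter on detection. They had been chosen by their measured differences from 0 Gy on these same 16 arrays, so these differences are given as a description, with no test. The RNA was extracellular, isolated from the medium around HCT116 cells (derived from a human colorectal carcinoma) 72 h after X-rays at a high dose rate. The groups were 0, 2, 6 and 10 Gy, with 4 arrays per dose from independent cultures per the series' design text. The design text leaves out 2 Gy, which is given in the labels of its 4 samples. All groups shared the cell line, the incubation and RPMI1640 medium with 10% fetal bovine serum. Mouse is named as the organism in the labels, although HCT116 and the array's probes are human. The medium contains bovine RNA, and bovine and cell-derived copies of a conserved miRNA cannot be told apart on this array. In culture supernatant, a change in release per cell and a change in the number of cells cannot be told apart either.

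A miRNA hairpin is cut by Drosha and Dicer into a short duplex, of which one arm is usually kept in an Argonaute protein while the other, the passenger arm, is usually degraded. In the miR-30 family the 5p arms share one seed, the bases near the 5′ end that pair with target messenger RNAs, and they are the main arms. They are known as regulators kept high in epithelial cells, where they act on messenger RNAs such as that of the transcription factor SNAI1. The 3p arms carry other seeds and so are read as a different set of miRNAs, although each is made from the same hairpin as its 5p partner.

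The sequences below show that miR-30e-5p and the 3p members share no seed, and that the 2 passenger arms differ from each other by few bases. No sequence was at hand for miR-30d-5p. They are the mouse miRNAs of the same names from RefSeq (GRCm38.p6), in which 3 of the 4 members had an entry. Each is written 5′ to 3′, with the seed (bases 2 to 8) in capitals.
mmu-miR-30e-5p: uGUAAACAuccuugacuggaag
mmu-miR-30c-5p: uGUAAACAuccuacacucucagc
mmu-miR-30c-1-3p: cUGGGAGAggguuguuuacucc
mmu-miR-30c-2-3p: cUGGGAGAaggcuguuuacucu
The 5p arms shown had the seed GUAAACA and the passenger arms UGGGAGA. Counting from 1 at the 5′ end, the first passenger arm differed from the second at 3 of 22 positions (G9A, U12C and C22U). G made up 36.4% and 31.8% of the bases of miR-30c-1-3p and miR-30c-2-3p, against 22.7% of miR-30e-5p and 8.70% of miR-30c-5p.

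The hairpins show how both arms of miR-30c leave one molecule, with the 5p arm first and the 3p arm second, both in capitals. The Mir30c-1 hairpin lies at chr4:120769534-120769622 on the minus strand and the Mir30c-2 hairpin at chr1:23291701-23291784 on the plus strand of GRCm38.p6.
Mir30c-1: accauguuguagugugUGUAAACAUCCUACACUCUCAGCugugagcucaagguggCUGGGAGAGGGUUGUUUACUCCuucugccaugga
Mir30c-2: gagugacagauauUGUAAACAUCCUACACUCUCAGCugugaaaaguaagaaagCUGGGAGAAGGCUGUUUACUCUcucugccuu
Both hairpins give the same 5p arm, so that miR-30c-5p on the array sums what both release, while the 3p arms are told apart by name. In the mouse genome the Mir30e hairpin lies on the same strand as Mir30c-1, with 2983 bases between them.

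The arrays detected 242 to 358 human miRNAs each. Values are log2 of the scaled signal, which is the processed intensity of a probe divided by the 75th percentile of the 518 probes detected on every array. A floor at 0.0412 scaled units, log2 of -4.60, was applied, and a value at the floor has no order among others there. These log2 levels compare doses within 1 miRNA and not one miRNA with another. Slide 1 held the 0 and 2 Gy arrays and slide 2 the 6 and 10 Gy arrays. The differences of 6 and 10 Gy from 0 Gy therefore cannot be told apart from a difference between slides, while 2 against 0 Gy and 10 against 6 Gy lie within a slide. Within a slide, 0 and 6 Gy held columns 1 and 2, and 2 and 10 Gy columns 3 and 4. A difference within a slide thus cannot be told apart from a difference between positions. The hybridization spike-ins had log2 signals of 12.62 to 13.49 at 0 Gy and 12.25 to 12.37 at 2 Gy, while those at 6 and 10 Gy overlapped. On 2 arrays, 0 Gy replicate 3 and 6 Gy replicate 4, neither of the labelling spike-ins (RNAs added before the labelling reaction) was detected, and these arrays stood apart for the members too. Results that rest on them are given with and without them.

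Of 8 colon epithelium markers 5 were detected on at least 1 array. miR-141-3p and miR-200c-3p were each detected on 15 of 16 arrays and passed the filter, whereas miR-200a-3p, miR-200b-3p and miR-429 of the same family were detected on 4, 8 and 6 arrays and did not. The log2 level of miR-200c-3p averaged -0.99 ± 1.61, -3.13 ± 1.28, -3.49 ± 1.34 and -1.73 ± 0.84 at 0, 2, 6 and 10 Gy (SD, n = 4). miR-192-5p, miR-194-5p and miR-215-5p, which mark differentiated gut epithelium, were detected on 0 arrays. Of 3 red blood cell markers 1 was detected, miR-486-5p, on all 16 arrays, and of 4 markers of white blood cells and platelets also 1, miR-155-5p, on all 16. The log2 level of miR-486-5p averaged -3.74 ± 0.07, -3.59 ± 0.10, -3.53 ± 0.24 and -3.43 ± 0.05 at 0, 2, 6 and 10 Gy, and that of miR-155-5p -2.98 ± 0.16, -2.79 ± 0.11, -2.68 ± 0.14 and -2.71 ± 0.02 (SD, n = 4). Both averaged higher after each dose, as the passenger arms below did, and their part in those results was not tested. The defining miR-451a and miR-223-3p were detected on 0 arrays.

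miR-30e-5p, a main arm, was lower after every dose, while both passenger arms of miR-30c were higher on average after every dose. miR-30d-5p, the other main arm, did not share the lower level of miR-30e-5p: its difference from 0 Gy was positive at 2 and 10 Gy and negative at 6 Gy, each close to its own error or below it. miR-30e-5p passed the filter through the 0 Gy arrays alone, the group where it was high, so that among miRNAs kept in this way a lower level elsewhere had to be found and supports nothing further. Any contrast between the 5p and 3p members lies, on the 5p side, in miR-30e-5p. The differences below are from limma's fit of all 283 miRNAs over the 16 arrays, with the standard error (SE) of the fit.

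**Figure D1:**
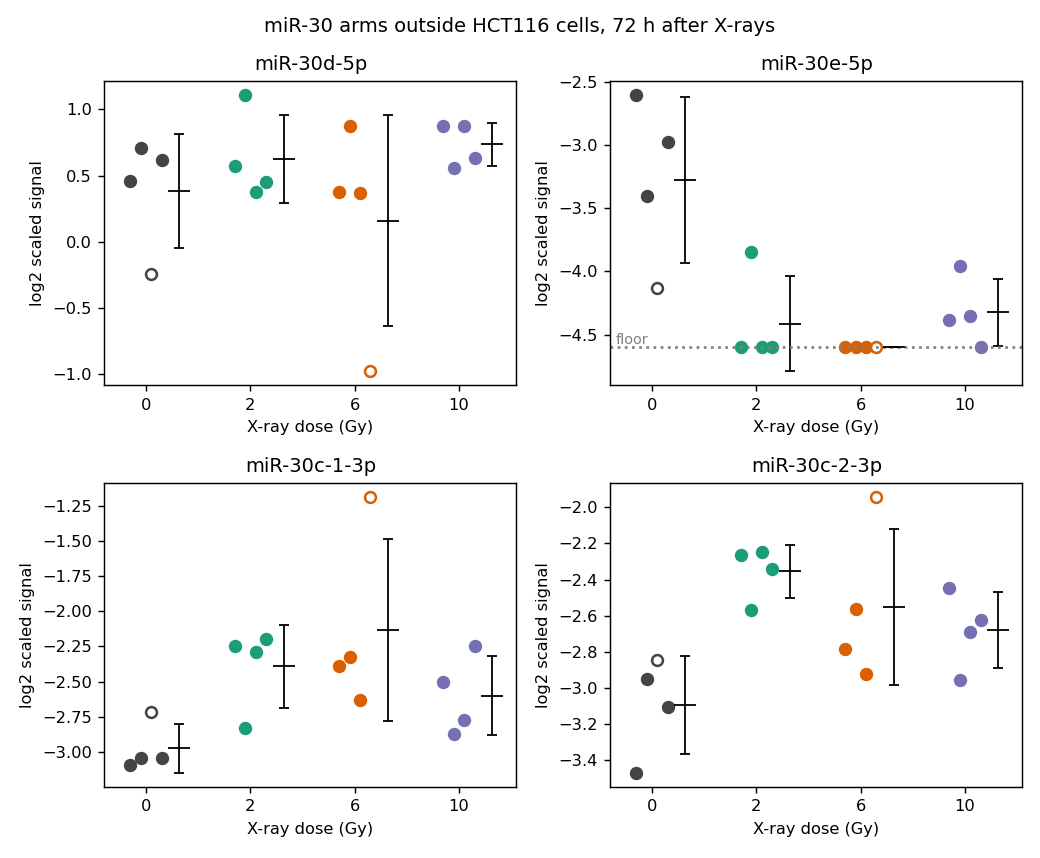
Log2 scaled signal of the 4 members (vertical axes) against X-ray dose in Gy (horizontal axes), 1 point per array, with the mean and SD of 4 arrays beside each dose. Open points are 0 Gy replicate 3 and 6 Gy replicate 4, on which neither labelling spike-in was detected, and the dotted line is the floor at -4.60. miR-30e-5p lies at the floor on all 4 arrays at 6 Gy, whereas the passenger arms of miR-30c lie mostly above their 0 Gy points after irradiation.

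miR-30e-5p had log2 levels of -2.60, -3.41, -4.13 and -2.98 on the 4 arrays at 0 Gy. At 2 Gy they were -4.60, -3.85, -4.60 and -4.60, at 6 Gy all 4 were at the floor of -4.60, and at 10 Gy they were -4.38, -3.96, -4.35 and -4.60. The 6 Gy arrays all lay below the 0 Gy arrays, and at 2 and 10 Gy 1 array each (replicate 2) lay above the lowest 0 Gy array, replicate 3. The difference from 0 Gy was -1.13 at 2 Gy, -1.32 at 6 Gy and -1.04 at 10 Gy, each with an SE of 0.27. The size of the difference depends on how signals near background are treated, since at 6 Gy its probes were detected on 1 and 2 of 4 arrays and lay under the floor on all 4. At 6 Gy it was -0.67 with normexp background correction and -2.05 with no floor.

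Its brighter probe had scaled signals of 0.266, 0.136, 0.0630 and 0.205 at 0 Gy. At 2 Gy they were 0.0370, 0.0866, 0.0266 and 0.0277, at 6 Gy 0.0357, 0.0389, 0.0310 and 0.0117, and at 10 Gy 0.0557, 0.0928, 0.0581 and 0.0340. The miRNA was detected by at least 1 probe on 4, 2, 2 and 3 arrays at 0, 2, 6 and 10 Gy. The levels at 6 Gy thus lie under the floor but were not all lost in the background. Replicate 2 was the highest array at each of 2, 6 and 10 Gy, and replicate 3 was the lowest at 0 Gy.

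miR-30d-5p was detected on all 16 arrays by both of its probes. Its log2 levels were 0.46, 0.71, -0.24 and 0.62 at 0 Gy, 0.58, 1.11, 0.37 and 0.45 at 2 Gy, 0.38, 0.88, 0.37 and -0.98 at 6 Gy, and 0.88, 0.56, 0.87 and 0.63 at 10 Gy. All doses overlapped, and the lowest arrays at 0 and 6 Gy were those without a labelling spike-in. The difference from 0 Gy was 0.24 at 2 Gy, -0.23 at 6 Gy and 0.35 at 10 Gy, each with an SE of 0.32. Without 0 Gy replicate 3 and 2 Gy replicate 2 the difference at 2 Gy was -0.13. At 6 Gy it was 0.15 without 6 Gy replicate 4, and it was also positive without scaling, with scaling over all human probes and with the spike-in as a covariate (0.11). No direction can be given for miR-30d-5p.

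miR-30c-1-3p, the passenger arm of the first miR-30c hairpin, had log2 levels of -3.10, -3.04, -2.71 and -3.05 at 0 Gy. At 2 Gy they were -2.25, -2.83, -2.29 and -2.20, at 6 Gy -2.39, -2.32, -2.63 and -1.19, and at 10 Gy -2.50, -2.88, -2.77 and -2.25. The 6 Gy arrays all lay above the 0 Gy arrays, and at 2 and 10 Gy the groups overlapped only through 0 Gy replicate 3. The difference from 0 Gy was 0.58 at 2 Gy, 0.84 at 6 Gy and 0.37 at 10 Gy, each with an SE of 0.26. At 6 Gy this was the largest positive difference of the 283 miRNAs, a rank that only describes a member chosen on these differences. The difference at 6 Gy was 0.52 without 6 Gy replicate 4. It was 0.74 with the brightest probe alone and 0.42 with all probes, detected or not.

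Of its 4 probes 2 passed the filter, and 1 of these passed through the irradiated groups alone. That dimmer probe was detected on 1, 4, 4 and 3 arrays at 0, 2, 6 and 10 Gy, and at 0 Gy it lay below the floor on 3 of 4 arrays. The brighter probe was detected on all 16 arrays. Its scaled signal averaged 0.389 ± 0.081, 0.557 ± 0.086, 0.655 ± 0.183 and 0.488 ± 0.048 at 0, 2, 6 and 10 Gy (SD, n = 4).

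miR-30c-2-3p, the passenger arm of the second miR-30c hairpin, had log2 levels of -3.47, -2.95, -2.85 and -3.11 at 0 Gy. At 2 Gy they were -2.26, -2.57, -2.25 and -2.34, at 6 Gy -2.78, -2.56, -2.92 and -1.94, and at 10 Gy -2.45, -2.95, -2.69 and -2.62. Here the 2 Gy arrays all lay above the 0 Gy arrays, whereas 1 array each at 6 and 10 Gy reached into the 0 Gy range. The difference from 0 Gy was 0.74 at 2 Gy, 0.54 at 6 Gy and 0.42 at 10 Gy, each with an SE of 0.20. Without 6 Gy replicate 4 the difference at 6 Gy was 0.34. The difference at 2 Gy, within slide 1, was exceeded by 2 of the 283 miRNAs, a rank that again only describes a chosen member.

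The background for these counts is the share of all 283 miRNAs whose 4 irradiated arrays all lay on one side of the 4 arrays at 0 Gy. At 2 Gy this held for 7.07% of miRNAs upward and 4.24% downward, and for 1 and 0 of the 4 members. At 6 Gy it held for 5.65% upward and 3.53% downward, and for 1 and 1 members. At 10 Gy it held for 9.89% upward and 5.3% downward, and for 0 members either way. Since the members were chosen on these contrasts, nothing is read from their counts. The median difference over all 283 miRNAs was 0.03, 0.12 and -0.02 at 2, 6 and 10 Gy.

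In the fit without covariates, 10 Gy was the dose nearest to 0 Gy on average for miR-30e-5p and both passenger arms. With the spike-in as a covariate, 10 Gy was instead the farthest for miR-30e-5p, at -1.12 against -1.02 and -1.04 at 2 and 6 Gy. At 10 Gy against 6 Gy, within slide 2, the difference was -0.47 ± 0.26 for miR-30c-1-3p, -0.13 ± 0.20 for miR-30c-2-3p, 0.28 ± 0.27 for miR-30e-5p and 0.57 ± 0.32 for miR-30d-5p (SE). None reached 2 SE. Without the 2 arrays lacking a labelling spike-in the values were -0.15 for miR-30c-1-3p, 0.076 for miR-30c-2-3p, 0.28 for miR-30e-5p and 0.20 for miR-30d-5p. In order of mean level, 0 Gy was lowest for both passenger arms, and irradiated doses next to each other in that order differed by less than their pooled SD.

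The opposition of the arms was also taken within each array, as the mean of both 3p members minus the mean of both 5p members, with the 0 Gy mean set to 0. Scaling cancels in this measure except at the floor. There the brighter probe of miR-30e-5p lay on 3, 4 and 1 of 4 arrays at 2, 6 and 10 Gy, and its dimmer probe on 3, 4 and 3. The dimmer probe of miR-30c-1-3p lay there on 3 of 4 arrays at 0 Gy. The arrays at 0 Gy had -0.62, -0.06, 0.99 and -0.31, those at 2 Gy 1.35, 0.26, 1.43 and 1.39, those at 6 Gy 1.11, 1.01, 0.93 and 2.81, and those at 10 Gy 0.87, 0.37, 0.60 and 1.14. All 12 irradiated arrays lay above 3 of the 4 arrays at 0 Gy, and 0 Gy replicate 3 lay within the irradiated range. The members were chosen on these differences. Moreover, miR-30e-5p passed the filter through 0 Gy alone, and the dimmer probe of miR-30c-1-3p through irradiated groups alone. A higher value after irradiation was thus favoured in advance and is only a description. The means were 1.11 ± 0.57, 1.47 ± 0.90 and 0.74 ± 0.33 above 0 Gy at 2, 6 and 10 Gy, against an SD of 0.70 at 0 Gy (n = 4 each). Leaving out single arrays moved the 2 Gy value between 0.90 and 1.44 and the 6 Gy value between 1.02 and 1.80.

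**Figure D2:**
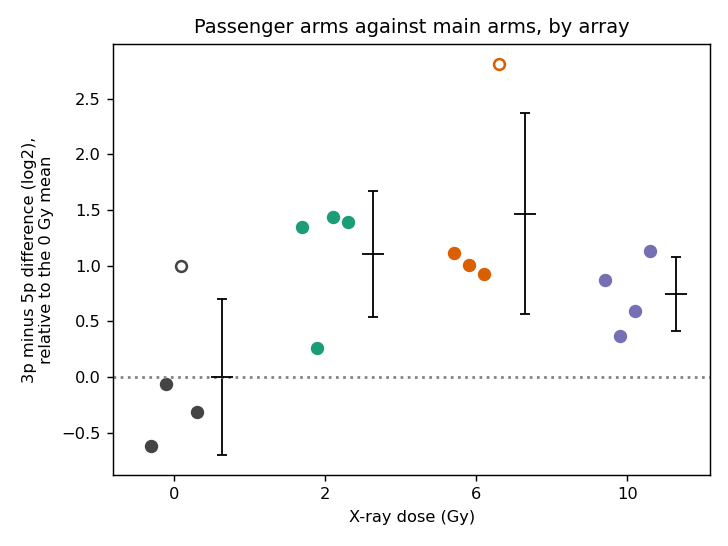
Mean log2 level of both passenger arms minus that of both main arms (vertical axis, relative to the 0 Gy mean) against X-ray dose in Gy (horizontal axis), 1 point per array, with the mean and SD of 4 arrays beside each dose. Open points are the arrays on which neither labelling spike-in was detected. At 0 Gy the open point sits at 0.99, among the irradiated arrays, and at 6 Gy it sits highest, at 2.81.

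Opposite signs of the 2 arms of the same hairpin were not rare on these arrays, counted whatever the size of the difference. No miR-30 hairpin had both arms tested. The arm difference above sets arms of different hairpins against each other, so the values below are not its background. Outside the miR-30 family, 15 hairpins had both arms among the 283 miRNAs. Their arms differed from 0 Gy in opposite directions for 10 of 15 hairpins at 2 Gy, 9 at 6 Gy and 5 at 10 Gy. The 3p arm was the higher one in 6, 7 and 2 of these. The difference of the 3p arm minus that of the 5p arm ran from -1.81 to 2.42 at 2 Gy and from -1.67 to 2.40 at 6 Gy.

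None of the 7 other miR-30 arms passed the filter, so none was tested. miR-30c-5p, the main arm made from the same hairpins as both passenger arms, was detected on 3 of 4 arrays at 0 Gy, on 0 at 2 Gy, on 0 at 6 Gy and on 1 at 10 Gy. Its brighter probe had scaled signals of 0.107, 0.0828, 0.0120 and 0.0654 at 0 Gy. At 2 Gy they were 0.00437, 0.0203, 0.00252 and 0.00488, at 6 Gy 0.00802, 0.0149, 0.0119 and 0.000695, and at 10 Gy 0.0160, 0.0507, 0.0152 and 0.0108. Signals of arrays where it was not detected are not well above background, and 0 Gy replicate 3 was again the array that fell among the irradiated ones. With the irradiated arrays set at the lowest detected signal of the array or the probe's own, whichever was higher, miR-30c-5p was at least 1.58-fold lower at 2 Gy and at least 1.60-fold lower at 6 Gy than at 0 Gy.

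miR-30b-5p, another main arm with its own hairpin, was detected on 3 of 4 arrays at 0 Gy, on 0 at 2 Gy, on 1 at 6 Gy and on 0 at 10 Gy. Its brightest probe had scaled signals of 0.0818, 0.0847, 0.0167 and 0.0429 at 0 Gy. They lay between 0.00265 and 0.0227 at 2 Gy, between -0.000843 and 0.0423 at 6 Gy and between 0.00924 and 0.0350 at 10 Gy. It was at least 1.45-fold lower at 2 Gy and at least 1.07-fold lower at 10 Gy than at 0 Gy. Its passenger arm miR-30b-3p was detected on 3 of 4 arrays at every dose, with a scaled signal of its brighter probe between 0.0315 and 0.0501 on all 16 arrays. miR-30a-5p, miR-30a-3p, miR-30d-3p and miR-30e-3p were detected on 0 of 16 arrays. By their brightest probes, miR-30b-5p, miR-30c-5p and miR-30e-5p each had their highest array at 0 Gy, and miR-30d-5p had it at 2 Gy.

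**Figure D3:**
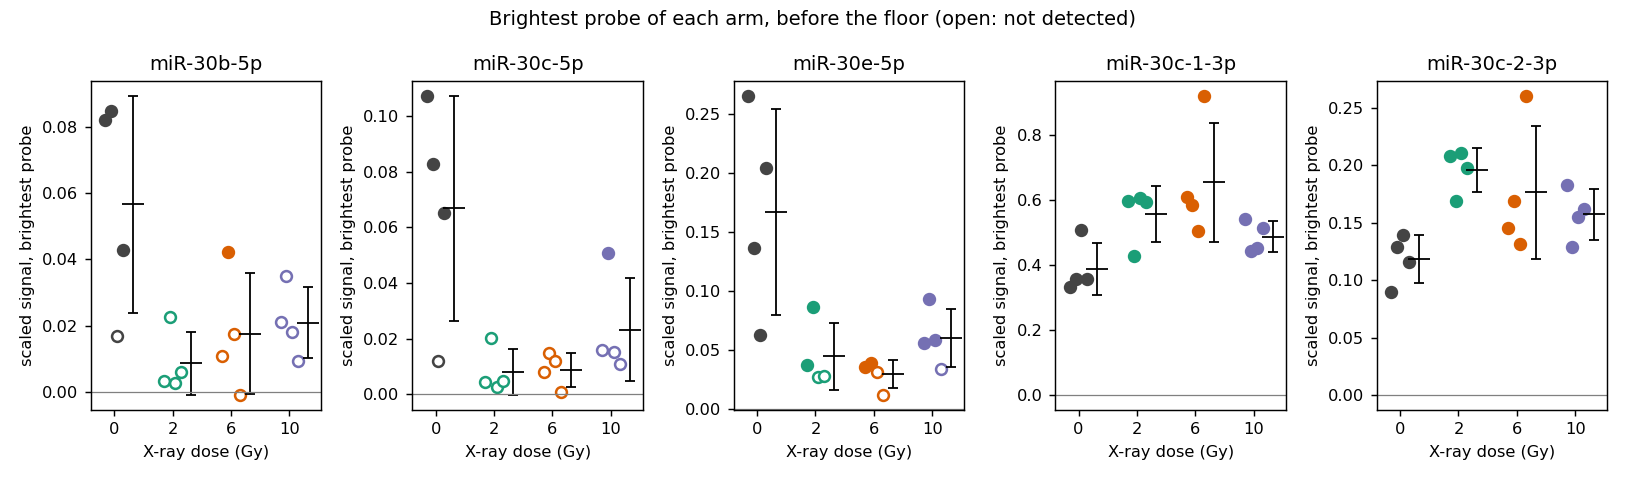
Scaled signal before the floor of the brightest probe of 3 main arms and 2 passenger arms (vertical axes) against X-ray dose in Gy (horizontal axes), 1 point per array, with the mean and SD of 4 arrays beside each dose. Open points are arrays on which the probe was not detected. miR-30b-5p and miR-30c-5p were each detected on 0 arrays at 2 Gy and on 3 at 0 Gy, while the passenger arms were detected on all 16 arrays.

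Within an array the spots of a probe agreed closely for the bright members. The median coefficient of variation between spots was 4.84% and 5.50% for the probes of miR-30d-5p, 7.64% for the brighter probe of miR-30c-1-3p and 10.1% for that of miR-30c-2-3p. It lay between 14.99% and 19.4% for the probes of miR-30e-5p and was 17.4% for the dimmer probe of miR-30c-1-3p.

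Within doses, the passenger arms moved together, and they moved against miR-30e-5p under some settings and not others. How often other pairs of the 283 miRNAs move together within doses was not tested. The passenger arms differed at 3 of 22 positions in the mouse sequences. Whether the probes of one also read the other was not tested. Over the 16 arrays, dose differences included, neither passenger arm was among the 3 miRNAs nearest to the other. After each dose mean was taken off, so that no difference between doses enters, Pearson's r over the 16 arrays was 0.87 between miR-30c-1-3p and miR-30c-2-3p (Spearman's rho 0.80, permutation p 0.00061 and 0.00075, adjusted over 6 pairs 0.00183 and 0.00225). Between miR-30e-5p and miR-30c-1-3p r was -0.45 (rho -0.70, permutation p 0.00047 for both, adjusted 0.00183 and 0.00225). Between miR-30e-5p and miR-30c-2-3p r was -0.56 (rho -0.70, permutation p 0.00125 and 0.00309, adjusted 0.00250 and 0.00618). At 6 Gy miR-30e-5p was at the floor on every array and adds nothing to these values. At 2 Gy 3 arrays were at the floor too, so that this dose enters only as replicate 2 against the rest. The array of 10 Gy replicate 4 was also at the floor. Without the 2 arrays farthest in the first of the pair, these r were 0.68, -0.47 and -0.43, each with an adjusted permutation p of 0.0321. The relation of miR-30e-5p with miR-30c-1-3p and miR-30c-2-3p was lost without scaling (r of -0.14 and -0.027, adjusted permutation p 0.669 and 0.915) and with normexp (r of -0.090 and 0.057, adjusted permutation p 0.848 for both). Without 0 Gy replicate 3 and 2 Gy replicate 2 the relation kept its sign. There r was -0.25 and -0.50, against -0.45 and -0.56 over the 16 arrays. The adjusted permutation p was then 0.0689 for both, against 0.00183 and 0.00250.

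Between miR-30d-5p and miR-30c-1-3p r was -0.81 (rho -0.67, permutation p 0.0137 and 0.0171, adjusted 0.0206 and 0.0257). Without 0 Gy replicate 3 and 6 Gy replicate 4 it was -0.35 (adjusted permutation p 0.467), so that this relation rests on those arrays. The 2 main arms had r of 0.39 (rho 0.45, permutation p 0.0668 and 0.0862, adjusted 0.0801 and 0.103), and miR-30d-5p with miR-30c-2-3p had r of -0.61 (rho -0.42, permutation p 0.116 and 0.163, adjusted 0.116 and 0.163). Within slide 1 (0 and 2 Gy, n = 8), r was 0.69 for the passenger arms, -0.83 and -0.92 for miR-30e-5p with each of them, with exact permutation p of 0.0191, 0.0104 and 0.0104 (adjusted 0.0382, 0.0312 and 0.0312). The values of miR-30e-5p there rest on the 0 Gy arrays and 2 Gy replicate 2, since its other 2 Gy arrays were at the floor. Within slide 2 (n = 8) r was 0.93 for the passenger arms (exact permutation p 0.0139, adjusted 0.0833) and -0.35 and -0.33 for miR-30e-5p with each of them (exact permutation p 0.125 and 0.208, adjusted 0.312 for both). All p-values here are two-sided.

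The members were also set against the labelling spike-in, whose log2 signal averaged 5.35, 3.82, 1.70 and 6.38 at 0, 2, 6 and 10 Gy with SDs of 5.83, 2.68, 3.86 and 1.26. This signal is the mean of both spike-ins. An undetected spike-in entered at a fixed low value, which gave -3.32 on 0 Gy replicate 3 and 6 Gy replicate 4. On 2 Gy replicate 1 and 6 Gy replicate 1, 1 of the 2 was undetected. The values with the spike-in, including the fit with it as a covariate, therefore rest in part on that fixed value. Over the 16 arrays r with the spike-in was 0.72 for miR-30d-5p (rho 0.48), 0.56 for miR-30e-5p (rho 0.76), -0.69 for miR-30c-1-3p (rho -0.80) and -0.56 for miR-30c-2-3p (rho -0.63). These values hold the dose differences on which the members were chosen, and the spike-in also differed between doses, so they are a description with no test.

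With dose means taken off, main arms were higher and passenger arms lower on arrays with a brighter spike-in: r was 0.71, 0.72, -0.67 and -0.66 in the same order of members, with permutation p adjusted over the 4 members of 0.0235, 0.00104, 0.00104 and 0.0201, and rho was 0.61, 0.67, -0.70 and -0.70 (adjusted permutation p 0.0373, 0.00094, 0.00076 and 0.00953). What share of the 283 miRNAs goes with the spike-in within doses was not tested. The values of the 4 members are therefore not read as particular to the miR-30 arms. By spike-in signal, 0 Gy replicate 3 and 6 Gy replicate 4 lay farthest from the median. Without them r over the remaining 14 arrays was 0.21, 0.73, -0.78 and -0.64, again with no test. Without them and with dose means taken off, r was 0.19, 0.54, -0.58 and -0.43 (adjusted permutation p 0.701, 0.161, 0.161 and 0.161). The rho values were then -0.046, 0.61, -0.64 and -0.42 (adjusted permutation p 0.905, 0.0555, 0.0891 and 0.198). For miR-30d-5p the relation within doses thus rests on them. For miR-30e-5p and both passenger arms it kept its sign and was smaller, with an adjusted p above 0.05. Within slide 1 (n = 8) r was 0.63, 0.67, -0.54 and -0.47 over both of its doses. Within slide 2 (n = 8) it was 0.85, 0.61, -0.90 and -0.72.

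With the spike-in as a covariate in limma's fit, miR-30e-5p differed from 0 Gy by -1.02 at 2 Gy, -1.04 at 6 Gy and -1.12 at 10 Gy. The differences were 0.48, 0.59 and 0.45 for miR-30c-1-3p and 0.66, 0.36 and 0.47 for miR-30c-2-3p at 2, 6 and 10 Gy. These 3 members kept the signs they had without the covariate. What part the labelling reaction has in the levels beyond this linear term was not tested.

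**Figure D4:**
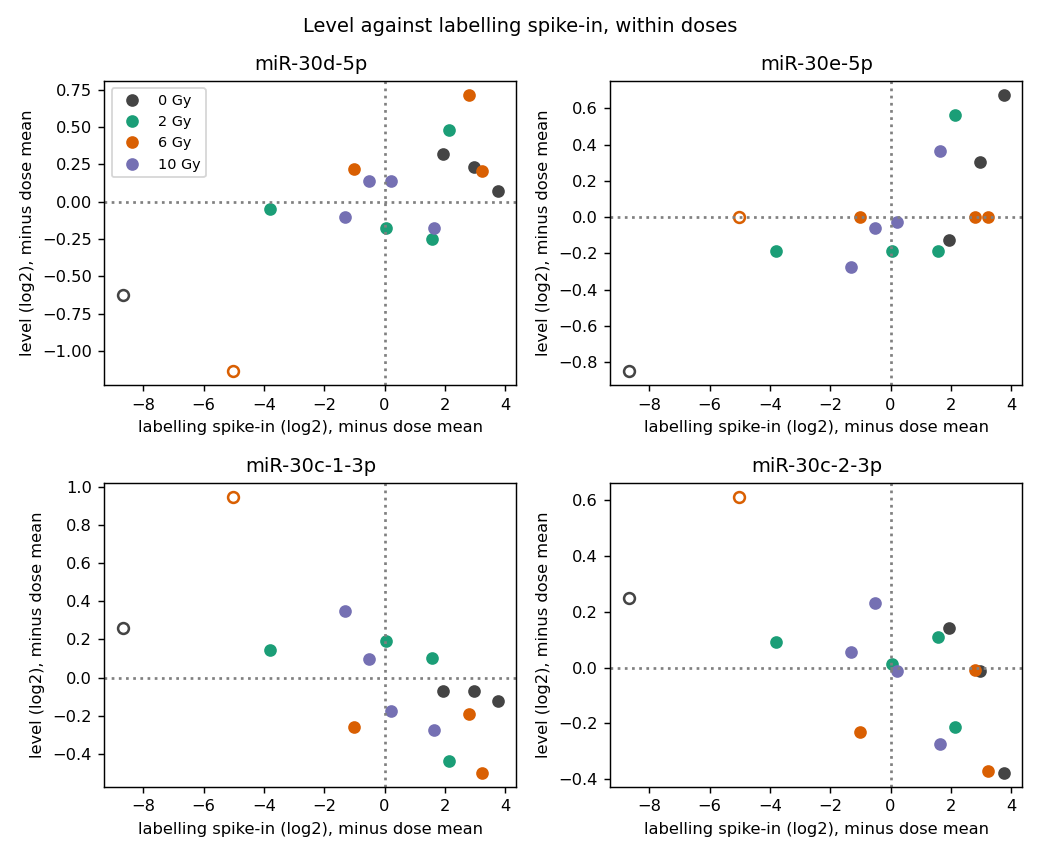
Log2 level of each member minus its dose mean (vertical axes) against the log2 labelling spike-in signal minus its dose mean (horizontal axes), 1 point per array, coloured by dose in Gy. Open points are 0 Gy replicate 3 and 6 Gy replicate 4, on which neither spike-in was detected and a fixed low value was used. The main arms slope upward (r of 0.71 and 0.72) and the passenger arms downward (r of -0.67 and -0.66), with the open points at the far left.

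The miRNAs whose levels over the 16 arrays were most like those of miR-30e-5p were miR-4299 (r of 0.95), miR-1274a_v16.0 (0.95) and miR-425-5p (0.93), and for miR-30d-5p they were miR-378_v17.0 (0.93), miR-151a-3p (0.90) and miR-769-5p (0.89). For miR-30c-1-3p they were miR-514b-5p (0.94), miR-1281 (0.93) and miR-3202 (0.91), and for miR-30c-2-3p miR-765 (0.97), miR-483-5p (0.96) and miR-526b-5p (0.95). These are Pearson correlations over 16 arrays that share doses, slides and scaling, picked as the 3 highest of the other 282 for each member, and are a description. No other miR-30 arm was among the 3 nearest of any member.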

How the data were processed

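Each deposited file holds 1 single-colour Agilent miRNA array read with Feature Extraction 11.5.1.1, and per the file headers its processed signal is a background-subtracted intensity, unscaled between arrays. Per the labels' protocols, an ISOGEN extraction supplied 100 ng of RNA for Cy3 labelling. Spots that were controls or carried an outlier flag were dropped (3.27 to 4.90% of spots flagged per array, 0 saturated), and spots of a probe were averaged. Detection of a probe required that more than 0.5 of its spots carried the flag for signal well above background. A miRNA was tested if 1 probe was detected on all 4 arrays of a dose, and took the mean of its passing probes. The floor came from the 5th percentile of detected probes on each array (median of the 16), and 4.17% of values lay there. Differences were fitted with limma 3.58.1 (lmFit and eBayes) in R 4.3.3 (data.table in version 1.17.8), over all 283 miRNAs. The fit was also run on simulated data with independent noise, which leaves out any error that arrays share, and nothing is read from that run here. Correlations used 100000 resamples, or every order (40320, or 576 within doses) for 8 arrays. Python 3.11.15 and matplotlib 3.10.9 drew the figures. The normexp alternative used the median spot intensity. The members, the marker lists and the miR-30 arms were chosen with earlier results of these data known. Named were the members, the other miR-30 arms and the 3 miRNAs most like each member. Of the 283 names, 89 had a mouse miRNA of the same name (31.4%), too few for a check of base content.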

Additional observations from a re-analysis of the deposited data

Results flagged for a closer look

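In 19 groups of 4 arrays, 1 array stood far from the other 3 by Dixon's ratio in 5, where chance gives about 1 in 20. At 2 Gy this was replicate 2 for miR-30e-5p (log2 level -3.85), for miR-30c-1-3p (-2.83, the lowest) and for the arm difference (0.26 against 1.35 to 1.43 on the others). The flag of miR-30e-5p follows from the floor, at which the other 3 arrays were set to 1 value: without the floor its ratio is 0.679, below the critical value, which leaves 4. At 0 Gy it was replicate 3 for miR-30c-1-3p (-2.71, the highest). At 6 Gy it was replicate 4 for the arm difference (2.81 against 0.93 to 1.11). Neither labelling spike-in was detected on 0 Gy replicate 3 and 6 Gy replicate 4. On 2 Gy replicate 2 both were detected, and its spike-in was the brightest of the 2 Gy arrays.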

How the results depend on the processing

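Over the scaling, background, floor, probe and covariate alternatives, 193 of 216 differences of members and 43 of 44 of the arm difference moved by less than 1 SD between arrays. The signs of miR-30e-5p, of both passenger arms and of the arm difference against 0 Gy were the same under every such alternative. Alternatives without a floor, with the brightest probe alone or without the 2 arrays lacking a labelling spike-in were chosen after seeing the data. The cause of the moves below was not tested. Scaling over all human probes moved the median of all miRNAs by 0.37, 0.41 and 0.19 at 2, 6 and 10 Gy, no scaling by 0.10, 0.25 and -0.22, and quantile normalization by 0.18, 0.10 and 0.10.

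Scaling over all human probes gave 0.65, 0.85 and 1.15 for miR-30d-5p, miR-30c-1-3p and miR-30c-2-3p at 2 Gy and 0.98 for miR-30c-2-3p at 6 Gy. No scaling gave 0.11 for miR-30c-1-3p at 10 Gy and -0.62 for miR-30c-2-3p at 10 against 6 Gy. Normexp gave -0.51, -0.67 and -0.22 for miR-30e-5p at 2, 6 and 10 Gy, 0.29 and 0.32 for the passenger arms at 2 Gy and 0.45 for the arm difference there. Agilent's total gene signal gave -1.80 and -2.21 for miR-30e-5p at 2 and 6 Gy and 0.69 at 10 against 6 Gy. All probes, detected or not, gave 0.29 and 0.37 for the passenger arms at 2 Gy. No floor gave -2.05 for miR-30e-5p at 6 Gy and 0.85 at 10 against 6 Gy, and 0.97 and 0.76 for miR-30c-1-3p at 2 and 10 Gy. The brightest probe alone gave -1.84 for miR-30e-5p at 6 Gy and 0.53 at 10 against 6 Gy, where the spike-in covariate gave -0.079.

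Members with all arrays higher numbered 2 at 2 Gy and 2 at 6 Gy under scaling over all human probes, 2 at 6 Gy with total gene signal, 0 at 6 Gy with no scaling and 2 at 10 Gy with normexp, where 13.8%, 18.7%, 12.7%, 0% and 8.48% of all 283 miRNAs were higher in this way. Those lower numbered 0 at 6 Gy with normexp and 1 at 10 Gy with no scaling, against 1.77% and 3.53% of all. Without 0 Gy replicate 3 and 2 Gy replicate 2, 2, 2 and 1 members were higher and 1, 1 and 1 lower at 2, 6 and 10 Gy, against 40.6%, 26.1% and 24.4% of all higher and 31.8%, 25.1% and 22.3% lower.

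Leaving out single arrays, miR-30e-5p differed from 0 Gy by -1.42 to -0.91 at 2 Gy, -1.61 to -1.10 at 6 Gy and -1.33 to -0.82 at 10 Gy, miR-30c-1-3p by 0.52 to 0.73, 0.52 to 1.01 and 0.26 to 0.47, and miR-30c-2-3p by 0.62 to 0.82, 0.34 to 0.67 and 0.29 to 0.51. miR-30d-5p ranged over both signs at 6 Gy, -0.46 to 0.15.

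For r with the spike-in over all arrays, scaling over all human probes gave 0.47 and no scaling 0.31 for miR-30d-5p, and no scaling 0.47 and total gene signal 0.47 for miR-30e-5p. Normexp gave -0.52 and -0.26 for the passenger arms, and without the 2 arrays lacking a spike-in r was 0.21 for miR-30d-5p. With dose means taken off, no scaling gave 0.36 for miR-30d-5p and -0.58 for miR-30c-2-3p, normexp -0.50 and -0.30 for the passenger arms and total gene signal 0.44 for miR-30e-5p. Without the 2 arrays these were 0.19, 0.54, -0.58 and -0.43, and without 0 Gy replicate 3 and 2 Gy replicate 2 miR-30d-5p had 0.62. Each value with dose means taken off had an adjusted p above 0.05.

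Between members, no scaling gave r of -0.066 for miR-30d-5p with miR-30c-1-3p, and -0.14 and -0.027 for miR-30e-5p with the passenger arms. Normexp gave -0.090 and, with the sign turned, 0.057 for the same pairs of miR-30e-5p. Without 0 Gy replicate 3 and 2 Gy replicate 2, r was -0.78 for miR-30d-5p with miR-30c-1-3p and -0.25 and -0.50 for miR-30e-5p with the passenger arms, each with an adjusted p above 0.05. Without the 2 arrays lacking a spike-in, miR-30d-5p with miR-30c-1-3p had -0.35. The main arms gained an adjusted p under 0.05 with no scaling (0.59), total gene signal (0.58) and no floor (0.79), and miR-30d-5p with miR-30c-2-3p with quantile normalization (-0.73) and total gene signal (-0.80). The pair of passenger arms kept its adjusted p under 0.05 under every alternative.

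Replicate numbers did not pair the arrays: of 24 pairs with the same number at different doses, 14 correlated above 0.1 (range -0.76 to 0.87), and 5 of 16 arrays were closest to their own number. For replicate 2 all 6 pairs did (0.59 to 0.87), and the permutations within doses do not take this into account. With the replicate block the differences were the same as without it (-1.13, -1.32 and -1.04 for miR-30e-5p at 2, 6 and 10 Gy), with an SE of 0.26 for miR-30e-5p. This sameness follows from the design, in which every dose holds every replicate number, so that only the SE can change. The number of arrays and signals of miR-30b-5p, miR-30c-5p and miR-30e-5p near background limit the precision.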
